A study of Mus musculus with 12 samples.

Results

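Colon tumours were compared between hosts that lacked the interleukin-33 receptor ST2 and wild-type hosts, where both had received wild-type bone marrow. The comparison was chosen by the genotypes in the labels and used 6 of the 12 tumour libraries of the study. The control group, labelled WT => WT, held 3 libraries from wild-type hosts given wild-type marrow. The other group, labelled WT => St2-/-, held 3 libraries from St2-/- hosts given wild-type marrow, so that ST2 was missing from the host and present in the transplanted cells. All hosts were Balb/c mice that received 2 irradiation doses of 5 Gy and a marrow graft, and were left for 8 weeks to rebuild their blood cells. All then had 6 weekly injections of azoxymethane (AOM) at 10 mg/kg, a carcinogen that induces colon tumours without a transplanted tumour line. Tumours were taken 13, 13 and 14 weeks after the last injection in WT => WT replicates 1, 2 and 3, and 14, 13 and 13 weeks after it in WT => St2-/- replicates 1, 2 and 3. The mice were male except for WT => St2-/- replicate 3, which was female. Not given in the sources used here are the ages of the mice, the construction of the St2-/- allele and the share of host blood cells left after grafting. The labels call the libraries biological replicates and do not say whether a mouse gave more than 1 of them.

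ST2 is encoded by Il1rl1 and binds interleukin-33, an alarm signal that epithelial and stromal cells release when they are damaged. It signals through the adaptor Myd88 and is known from mast cells, group 2 innate lymphoid cells and regulatory T cells, all of which act in the gut wall. In a chimera, marrow supplies most white blood cells, while epithelium, fibroblasts, muscle and blood vessels stay of the host's genotype, as do long-lived white blood cells that survive irradiation. Interferon-gamma, the product of activated T cells and natural killer cells, acts through factors such as IRF1 and raises guanylate-binding proteins, chemokines, Ido1 and the machinery that presents antigen. Gasdermin C proteins are pore-forming proteins of the intestinal epithelium that are known to rise with type 2 cytokines such as interleukin-13.

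The gene counts of the 6 libraries summed to between 10293818 and 12962496, and 16950 to 17697 genes had at least 1 count. Alignments assigned to no gene made up 52.0% to 53.2% of a WT => WT library and 54.3% to 58.5% of a WT => St2-/- library, without overlap between the groups. The mean log2 CPM of the smooth muscle markers was 3.37, 4.16 and 4.48 in WT => WT replicates 1, 2 and 3, and 4.00, 6.89 and 5.89 in WT => St2-/- replicates 1, 2 and 3. Among the 6 libraries compared, the last 2 therefore stood apart in their muscle content, and results are also given without them. Leaving them out also removes the only female library and both WT => St2-/- tumours taken at 13 weeks. Muscle content, sex and week therefore cannot be told apart under that setting. In the rest of the study the mean of the smooth muscle markers was 6.54, 5.77 and 4.53 in St2-/- => WT, wild-type hosts given St2-/- marrow. It was 4.55, 3.44 and 4.29 in St2-/- => St2-/-. The libraries of both these groups stayed in the fit when the 2 were left out. The female library held 2013 CPM of Xist, the RNA that silences an X chromosome, against 14.6 to 42.0 CPM in the 5 male libraries, and its counts of Y-linked genes were near 0. Labels of all wild-type hosts carry mouse numbers of 5 digits and those of all St2-/- hosts numbers of 3 digits, and the sources used here do not say whether these mark separate cohorts. Anything that goes with this numbering cannot be told apart from the genotype of the host. CPM are edgeR's depth-scaled counts after TMM scaling, and the floor of 3 counts in a library corresponded to 0.239 to 0.290 CPM.

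Loss of ST2 from the host went with 24 called genes, 18 lower and 6 higher in WT => St2-/- than in WT => WT (edgeR quasi-likelihood test, Benjamini-Hochberg adjusted p under 0.05). They were 0.159% of the 15060 genes tested, with 0.12% lower and 0.0398% higher. In bulk tumour RNA, fewer cells of a type and less RNA per cell cannot be told apart. The lower group held interferon-responsive genes such as Ido1, Il18bp, Ifi47, Stat2, Psmb8 and B2m. The higher group held Gsdmc2, a pore-forming gasdermin of the gut epithelium, and Wipi1, a protein of autophagosome formation. In every called gene the 3 libraries of one group lay entirely above the 3 of the other. Over all genes tested, 7.84% were higher and 9.82% lower without overlap, 8.36% and 8.33% had an unadjusted p under 0.05 in these directions, and the median log2 fold change was 0.01.

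**Figure D1:**
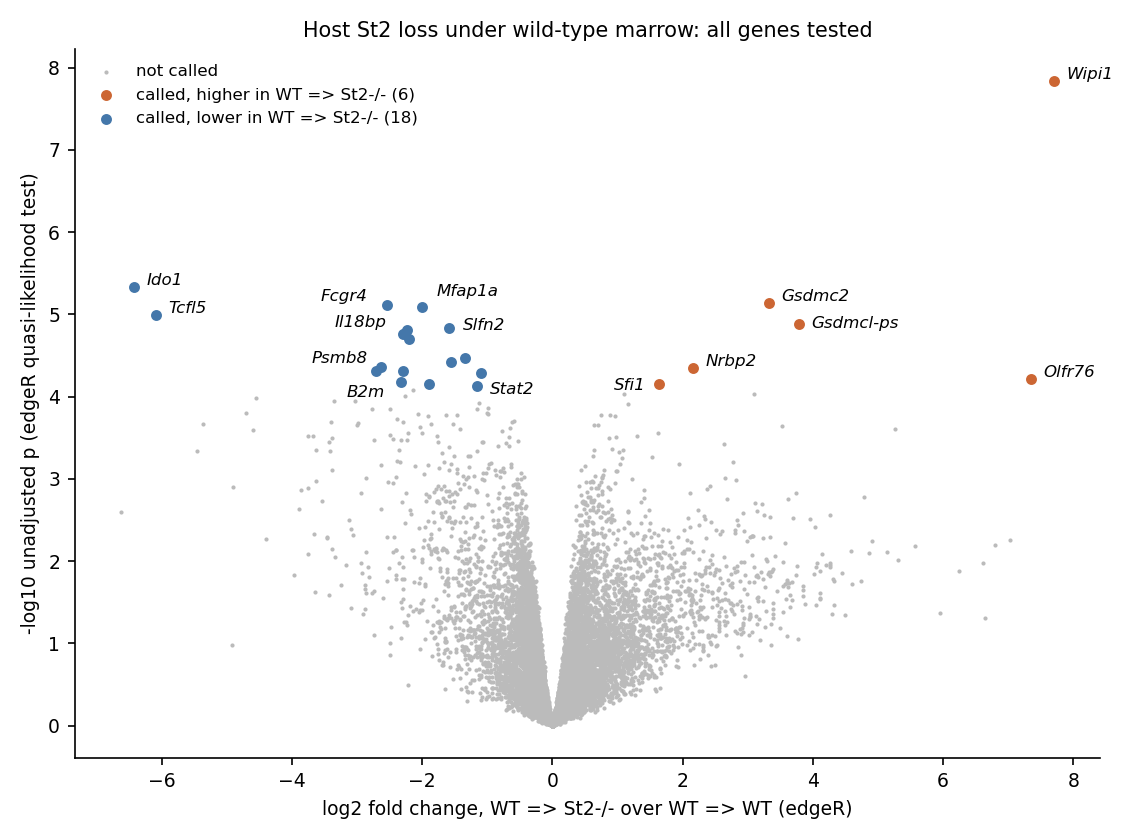
Each point is 1 of the 15060 genes tested, with the log2 fold change of WT => St2-/- over WT => WT on the x axis and the -log10 of the unadjusted edgeR p on the y axis. Orange and blue points are the 6 higher and 18 lower called genes, and Wipi1 stands alone at the top right with a log2 fold change of 7.70.

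The number of calls depended strongly on single libraries. It was 58, 1 and 1 without WT => WT replicates 1, 2 and 3, and 142, 3 and 4 without WT => St2-/- replicates 1, 2 and 3. Without a library of the other groups, which helped set the spread, it was 12, 49 and 13 for St2-/- => WT and 1, 42 and 23 for St2-/- => St2-/- replicates 1, 2 and 3. With both muscle-rich WT => St2-/- libraries left out it was 3, of which 2, Wipi1 and Mfap1a, were among the 24, and the lone St2-/- host is then assumed to vary like the other groups. Of the called genes named here, only Wipi1 was called in all 22 alternatives, and the others were called in 8 to 17 of them, each with the same direction in all 22.

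Il1rl1, the gene of the receptor itself, was counted first as a check of the labels. It lies on chromosome 1 from 40429570 to 40465415 (GRCm38, GENCODE M21). Its level was 53.5, 132 and 275 CPM in WT => WT and 11.9, 25 and 7.30 CPM in WT => St2-/-. The groups did not overlap, and reads remained in every St2-/- host. In St2-/- => St2-/-, where neither host nor marrow carries the intact gene, it was at 13.4, 7.91 and 10.7 CPM. The log2 fold change was -3.38 (SE 0.73, edgeR adjusted p = 0.0880), which did not pass the threshold. The ligand gene Il33 was at 13.3, 35.5 and 73.2 CPM against 31, 20.2 and 25.1 CPM, with the host groups overlapping. Of the 14 genes listed for interleukin-33 signalling, edgeR called 0, DESeq2 2 and limma-voom 1, and at an unadjusted edgeR p under 0.05 there were 1 higher and 4 lower. The adaptor Myd88 lay at 74.7 to 85.9 CPM in WT => WT and 41.0 to 64.5 CPM in WT => St2-/- (log2 fold change -0.57, SE 0.16, edgeR adjusted p = 0.15).

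Interferon-responsive genes were lower in the St2-/- hosts across several lists. Many such genes carry short binding motifs ahead of their start. To show them, stretches upstream of 4 genes that hold such a motif are printed from RefSeq on GRCm38.p6. The called genes Ifi47, Il18bp, Slfn2 and H2-Q2 held none in the promoters searched. B2m, Fcgr4 and Stat2 are called genes, and Irf1 is a transcription factor that interferon-gamma induces early. Each stretch runs 5′ to 3′ on the strand of the gene and ends shortly before its start. Capitals mark a match, on either strand, to the core of the interferon-stimulated response element (GAAA, any 2 bases, then GAAA), which IRF factors and the complex that contains STAT2 are known to bind, or, in Irf1, to the gamma-activated site (TTCNNNGAA), through which interferon-gamma is known to act.
B2m, chr2:122147437-122147676, plus strand: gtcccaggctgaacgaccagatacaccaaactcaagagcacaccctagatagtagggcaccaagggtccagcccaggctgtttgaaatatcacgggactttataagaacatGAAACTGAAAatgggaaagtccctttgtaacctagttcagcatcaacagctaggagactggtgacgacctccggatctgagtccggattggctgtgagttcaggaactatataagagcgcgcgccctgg
Fcgr4, chr1:171018676-171018915, plus strand: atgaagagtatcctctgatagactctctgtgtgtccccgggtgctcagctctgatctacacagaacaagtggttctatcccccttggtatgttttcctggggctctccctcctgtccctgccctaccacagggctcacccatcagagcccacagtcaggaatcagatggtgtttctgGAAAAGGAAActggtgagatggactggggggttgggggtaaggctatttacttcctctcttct
Stat2, chr10:128270248-128270487, plus strand: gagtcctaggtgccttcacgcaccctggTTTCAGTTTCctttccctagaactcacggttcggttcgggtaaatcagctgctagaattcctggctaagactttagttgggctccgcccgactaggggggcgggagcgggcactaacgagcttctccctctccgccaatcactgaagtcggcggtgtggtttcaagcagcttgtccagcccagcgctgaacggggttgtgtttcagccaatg
Irf1, chr11:53769764-53770003, plus strand: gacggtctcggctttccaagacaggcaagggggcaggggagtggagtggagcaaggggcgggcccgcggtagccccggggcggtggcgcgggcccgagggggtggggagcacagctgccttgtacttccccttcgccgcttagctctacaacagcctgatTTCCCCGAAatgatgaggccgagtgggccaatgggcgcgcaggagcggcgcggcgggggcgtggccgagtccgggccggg

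Promoters of 300 bases, from 250 before to 50 after the start, were searched on both strands for these letters. The response element core was present for 11 of the 19 interferon-gamma targets with a promoter in the table (57.9%) and for 15 of the 25 type I interferon targets (60.0%), beside 4.0% of the 27025 genes in the whole table. The gamma-activated site was present for 8 of the 19 (42.1%) and 6 of the 25 (24.0%), beside 9.6%. Of the 16 called lower genes with a promoter, 5 (31.2%) held the response element core (B2m, Fcgr4, Stat2, Slfn5 and the predicted gene Gm11127). The gamma-activated site was held by 1 of the 16, Psmb8 (6.2%). Of the 2 called higher genes with a promoter, 0 held the response element core and 1, Wipi1, the gamma-activated site. The core was present for 5 of 18 MHC class I genes (27.8%), 0 of 8 MHC class II genes, 2 of 16 smooth muscle markers (12.5%) and 0 of 13 mast cell markers. A gene counted once when any of its promoters held the letters, and a match describes the sequence and not a site in use.

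Interferon-gamma itself was seen in few reads. Ifng had 6, 11 and 24 reads in WT => WT and 0, 1 and 0 reads in WT => St2-/-, which is 41 against 1 in all, a ratio of 41.2 with a 95% counting interval of 6.99 to 1665. The fit gave an edgeR adjusted p of 0.101. Among the signalling genes downstream of the receptors, Stat2, a subunit of the complex that binds the response element, was called. It was at 160.3, 190.2 and 190.1 CPM in WT => WT and at 80.6, 69.8 and 92.5 CPM in WT => St2-/- (log2 fold change -1.15, SE 0.19, edgeR adjusted p = 0.0463). Irf1 was at 344, 430.3 and 379.5 CPM against 151, 106 and 116 CPM (-1.63, SE 0.29, edgeR adjusted p = 0.0554). Its groups did not overlap, and the adjusted p was above the threshold. Socs1, the feedback inhibitor of the pathway, lay at 21.3 to 38.5 CPM against 8.29 to 9.49 CPM. Of the 19 ligand, receptor and signalling genes tested, 1 was called lower, 8 were lower without overlap, and the median log2 fold change was -0.62.

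Targets of interferon-gamma were lower across the whole list. Of 33 targets tested, 3 were called lower, 32 were lower without overlap, and all 33 had a negative log2 fold change, with a median of -2.71 and a range from -6.43 to -0.72. The exception was Gbp9, named after its values were seen, whose libraries overlapped. Their summed level was 3148, 5570.1 and 5045 CPM in WT => WT and 1227, 733 and 981 CPM in WT => St2-/-. The highest St2-/- host held less than the lowest control library. The median was as large with both muscle-rich libraries left out (-2.98), but that value rests on a single WT => St2-/- library. Over all alternatives the median lay between -2.98 and -2.32. The number of calls depended on the method and on single libraries, with 30 of the 33 called by DESeq2 and 18 by limma-voom. With edgeR it was 0 with only the 2 groups compared. It was also 0 with the muscle score, the mean log2 CPM of the smooth muscle markers, as a covariate. Under these 2 settings edgeR also called 0 MHC class I, schlafen and gasdermin C genes. EdgeR called 0 of the 33 targets as well without WT => WT replicate 2 or 3 and without WT => St2-/- replicate 2 or 3. The same held without St2-/- => St2-/- replicate 1.

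The 3 called targets were Ido1, Il18bp and Ifi47. Ido1, on chromosome 8 from 24584136 to 24597009, encodes the enzyme that breaks down tryptophan along the kynurenine path. It was at 92.6, 88.2 and 169.9 CPM in WT => WT and at 2.45, 0.696 and 0.879 CPM in WT => St2-/-. That made it the lower called gene with the steepest fall, by 6.43 on the log2 scale (SE 0.76, edgeR adjusted p = 0.0238). Il18bp, a decoy that binds interleukin-18, was at 35, 63.4 and 53.9 CPM against 10.2, 9.91 and 11.5 CPM (log2 fold change -2.26, SE 0.31, edgeR adjusted p = 0.0238). Ifi47, an immunity-related GTPase, was at 101, 253 and 160.5 CPM against 27.6, 21.6 and 29.2 CPM (-2.71, SE 0.42, edgeR adjusted p = 0.0413). In all 3 genes every St2-/- host lay below every WT => WT library. Exons of Il18bp overlap Numa1 and those of Ifi47 overlap Gm12188 on the opposite strand, and the counting strand was not given, so these counts are less certain.

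Further targets missed the threshold with equally separate libraries. Gbp2, a guanylate-binding protein that attacks vacuoles of intracellular microbes, was at 99.2, 204 and 171 CPM against 20.0, 19.8 and 18.3 CPM (log2 fold change -3.03, SE 0.51, edgeR adjusted p = 0.0554). Gbp2b, its neighbour in the same family, was at 155, 357 and 332 CPM against 37.7, 20.1 and 24.6 CPM. Irgm2, another immunity-related GTPase, was at 116, 201 and 229.6 CPM against 44.5, 24.0 and 28.4 CPM (-2.50, SE 0.43, edgeR adjusted p = 0.0554). Cd274, which encodes the checkpoint ligand PD-L1, was at 27.1, 57.2 and 52.1 CPM against 9.65, 9.22 and 12 CPM (-2.14, SE 0.35, edgeR adjusted p = 0.0503). In each of them WT => WT replicate 1 was the lowest control and still lay above every St2-/- host.

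Antigen presentation by MHC class I followed the same order. Of 18 genes tested, edgeR called 3 lower, DESeq2 16 and limma-voom 14, 17 were lower without overlap, and the median log2 fold change was -1.65. B2m, the light chain shared by class I molecules, lies on chromosome 2 from 122147686 to 122153083. It was at 1373, 2549 and 1908 CPM in WT => WT and 313, 324 and 523 CPM in WT => St2-/-, a fall by 2.33 on the log2 scale (SE 0.37, edgeR adjusted p = 0.0458). Psmb8, a catalytic subunit of the immunoproteasome, was at 248, 449 and 318 CPM against 52.6, 44.3 and 65.8 CPM (log2 fold change -2.64, SE 0.40, edgeR adjusted p = 0.0413). H2-Q2, a non-classical heavy chain, was at 24.6, 44.3 and 31.2 CPM against 7.19, 6.61 and 7.91 CPM (-2.20, SE 0.31, edgeR adjusted p = 0.0252). In all 3 the St2-/- hosts kept less than the lowest control library. Tap1, a subunit of the pump that carries peptides to class I molecules, was at 198 to 463 CPM against 37.2 to 59.6 CPM. Nlrc5, the transactivator of class I genes, was at 54.9, 126 and 117 CPM against 10.3, 10.4 and 16.5 CPM (-3.0, SE 0.55, edgeR adjusted p = 0.0568). Of the 50-base windows in the exons of H2-Q2, 16.1% also occur in other genes, and reads from them could not be placed uniquely. Exons of Psmb8 overlap Gm20496 on the opposite strand.

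MHC class II presentation, found mainly on dendritic cells, B cells and macrophages and inducible on epithelium, held 11 tested genes, of which edgeR called 0, DESeq2 5 and limma-voom 1, and 7 had an unadjusted edgeR p under 0.05 in the lower direction. Its summed level was 2048, 2503 and 2799 CPM in WT => WT and 294, 562 and 1107 CPM in WT => St2-/-, and 7 genes were lower without overlap. Cd74, the invariant chain, was at 1192, 1443 and 1631 CPM against 136, 259 and 503 CPM (log2 fold change -2.25, SE 0.53, edgeR adjusted p = 0.104). By summed CPM, replicate 1 was the lowest of the St2-/- hosts here, while it was the highest of them for the interferon-gamma targets and the type I targets. By mean log2 CPM, replicate 3 was the highest for the interferon-gamma targets, at 3.78 against 3.50 and 3.28 in replicates 1 and 2.

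Type I interferon targets were lower as well, without an edgeR call. Of 31 tested, edgeR called 0, DESeq2 16 and limma-voom 6, 26 had an unadjusted edgeR p under 0.05, all in the lower direction, 28 were lower without overlap, and the median log2 fold change was -1.30. Their sum was 2615, 3364 and 2773 CPM in WT => WT and 1635, 713 and 1143 CPM in WT => St2-/-. Zbp1, a sensor of viral nucleic acids, was at 131, 328 and 233 CPM against 68.2, 21 and 34.0 CPM. The median moved to -0.74 with both muscle-rich libraries left out and to -0.71 with the muscle score as a covariate. Of the 7 schlafen genes tested, 2 were called lower and the median was -1.57. Slfn2, which keeps resting T cells quiescent, was at 66.5, 88.2 and 70.4 CPM against 22.7, 19.9 and 31.8 CPM (log2 fold change -1.60, SE 0.22, edgeR adjusted p = 0.0238). Slfn5 was at 65.2 to 82.1 CPM against 19.1 to 32.3 CPM, and its exons overlap Slfn5os on the opposite strand.

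**Figure D2:**
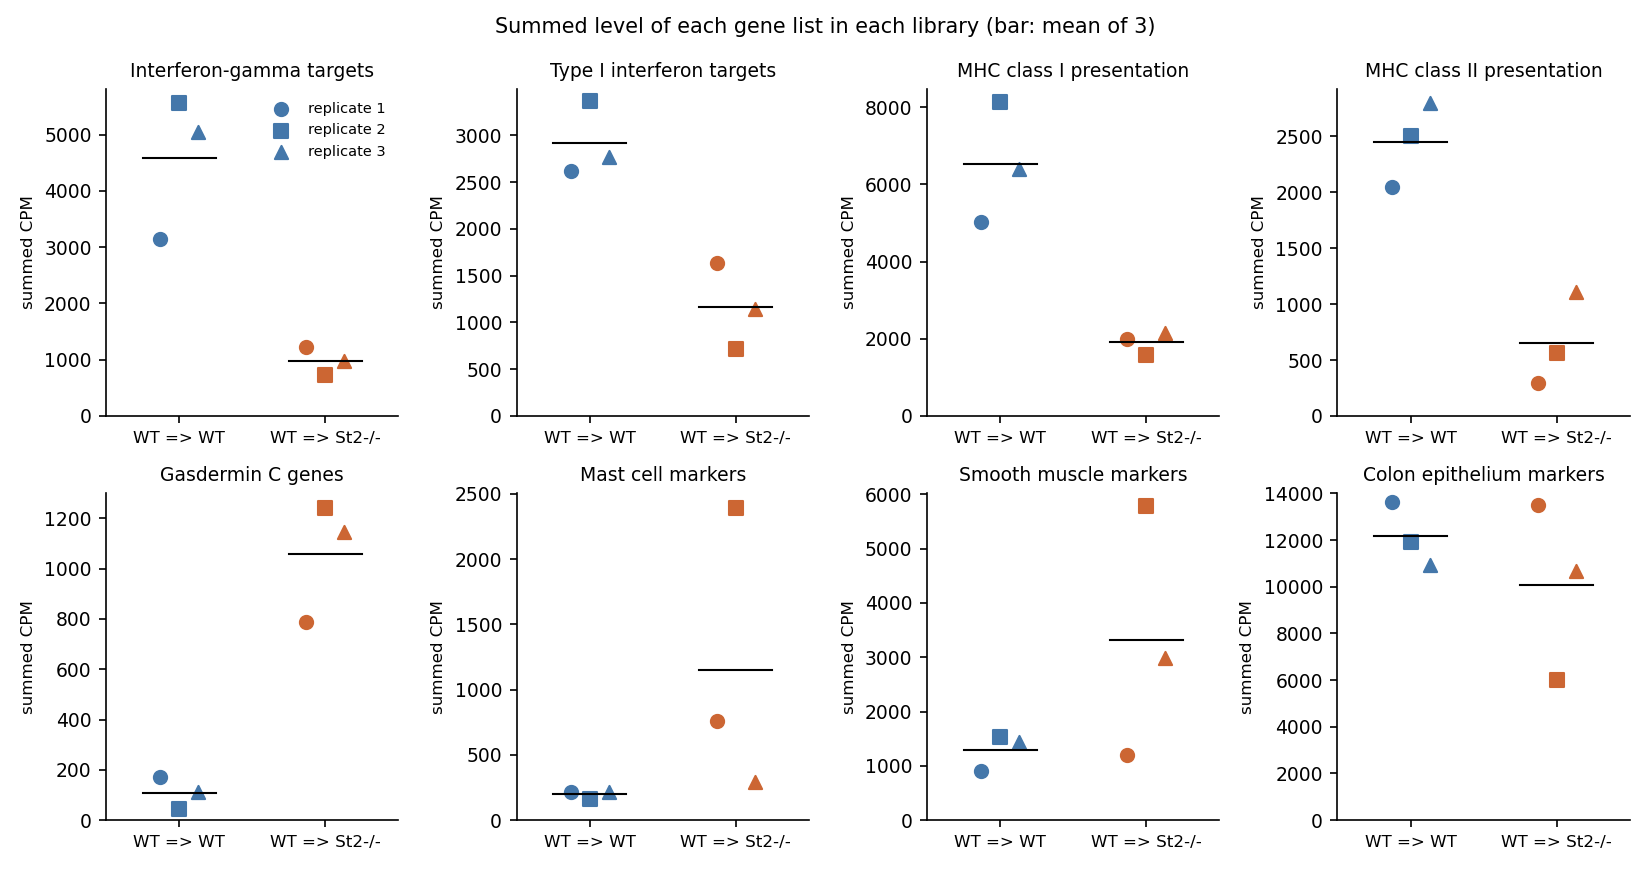
Each panel gives the summed CPM of 1 gene list on the y axis, with 1 point per library, a symbol per replicate number and a bar at the mean of the 3 libraries of a group. The 4 interferon and antigen presentation panels and the gasdermin C panel show no overlap between the groups, while WT => St2-/- replicate 3 lies close to the controls for mast cell markers and replicate 1 lies among them for smooth muscle markers.

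Of the gasdermin C genes, Gsdmc2, Gsdmc3 and Gsdmc4 were higher in every WT => St2-/- library than in any WT => WT library. Their cluster lies on chromosome 15, with Gsdmc from 63775968 to 63808759, Gsdmc2 from 63824346 to 63845177, Gsdmc3 from 63857724 to 63878558 and Gsdmc4 from 63891264 to 63912297, all on the minus strand. The summed level was 171, 43.7 and 113 CPM in WT => WT and 787, 1239.9 and 1144 CPM in WT => St2-/-. Gsdmc2 made up most of it, at 102, 33.7 and 79.3 CPM against 546, 862 and 742 CPM. Its log2 fold change of 3.32 was called (SE 0.41, edgeR adjusted p = 0.0238). Gsdmc3 was at 29.8, 4.06 and 17.4 CPM against 113, 233 and 245 CPM (3.52, SE 0.65, edgeR adjusted p = 0.0575). Gsdmc4 was at 39.3, 5.8 and 16.5 CPM against 128, 137 and 158 CPM (2.78, SE 0.58, edgeR adjusted p = 0.0844). So edgeR called 1 of the 3 genes tested, DESeq2 and limma-voom called 3, all 3 were higher without overlap, and WT => WT replicate 2 was the lowest library for each.

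Gsdmc, the fourth member, did not pass the count filter. It had 1 read in WT => WT and 92 in WT => St2-/-, of which 91 came from replicate 2. A pseudogene beside the cluster, Gsdmcl-ps, named after its values were seen, was called higher as well, at 0.676 to 2.23 CPM against 17.3 to 21.1 CPM (log2 fold change 3.78, SE 0.50, edgeR adjusted p = 0.0238). The members are close copies. Of the 50-base windows in their exons, 51.3% in Gsdmc2, 46.0% in Gsdmc3, 39.0% in Gsdmc4 and 32.1% in Gsdmcl-ps also occur in another gene. Reads from these windows had no unique position, so how the level divides between members is uncertain. The list median of 3.32 was 2.73 with both muscle-rich libraries left out and 3.07 with the muscle score as a covariate. Gsdmd, the gasdermin cut by inflammatory caspases, was not called, at 359.6 to 368 CPM against 153 to 317 CPM (-0.58, SE 0.22, edgeR adjusted p = 0.234).

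Mast cell genes were high in 2 of the 3 St2-/- hosts. The 16 markers summed to 217, 164 and 218 CPM in WT => WT and to 759.5, 2393 and 295 CPM in WT => St2-/- replicates 1, 2 and 3. Of the 14 tested, edgeR called 0, DESeq2 5 and limma-voom 0, 8 had an unadjusted p under 0.05 in the higher direction, 4 were higher without overlap, and the median log2 fold change was 2.19. Those 4 were Tpsab1, Mcpt4, Mcpt2 and Mcpt1. Tpsab1, a tryptase of connective tissue mast cells, was at 0.859, 0.386 and 2.95 CPM against 63.3, 90.5 and 10.3 CPM (log2 fold change 5.25, SE 0.98, edgeR adjusted p = 0.0590). Mcpt1, Mcpt2, Mcpt4 and Cma1 lie together on chromosome 14, from 55941451 to 56062313. Mcpt1 and Mcpt2 are the beta-chymases of mucosal mast cells. Mcpt1 was at 82.1, 39.7 and 64.5 CPM against 299.7, 1189 and 94.3 CPM (3.09, SE 0.88, edgeR adjusted p = 0.153). Mcpt2 was at 33.7, 17.7 and 28.5 CPM against 164, 544 and 49.6 CPM (3.24, SE 0.84, edgeR adjusted p = 0.128). Mcpt4, a chymase of connective tissue mast cells, was at 2.06, 3.09 and 1.67 CPM against 12.3, 46.3 and 5.27 CPM (3.22, SE 0.80, edgeR adjusted p = 0.113). All 4 shared the order of replicate 2 over replicate 1 over replicate 3 among the St2-/- hosts.

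The other mast cell genes overlapped between the groups. Tpsb2, a second tryptase, was at 0.172, 13.5 and 1.67 CPM against 81.4, 134 and 4.04 CPM. Cpa3, carboxypeptidase of mast cell granules, was at 6.61, 3.48 and 4.78 CPM against 18.3, 52.8 and 5.27 CPM. Fcer1a, the chain of the receptor that binds IgE, was at 1.72, 1.35 and 1.75 CPM against 4.82, 16.4 and 1.14 CPM. In these 3 genes WT => St2-/- replicate 3 lay within or below the range of the controls. Kit, the stem cell factor receptor that mast cells share with interstitial cells of Cajal, was at 41.3, 28.1 and 26.0 CPM against 26.4, 34.0 and 55.2 CPM. Mrgprb1 and Mrgprb2, receptors of connective tissue mast cells, were at or near 0 in all 6 libraries. Without WT => St2-/- replicate 2 the median of the tested markers was 0.84, without replicate 3 it was 2.66, and with both replicates 2 and 3 left out it was 1.49. The summed smooth muscle markers were 1196, 5778 and 2982 CPM in replicates 1, 2 and 3, and their part in the mast cell values was not tested.

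The library with the most mast cell RNA also held most of the reads for type 2 cytokine genes. Il13, which acts on epithelium and goblet cells, had 1 read in WT => WT and 41 in WT => St2-/-, with 39 in replicate 2, a ratio of 40.8 with a 95% counting interval of 6.93 to 1652. Il5, the eosinophil growth factor, had 2 reads against 13, with 11 in replicate 2. Il4 had 3 reads against 8, with 7 in replicate 2. Chil4, a chitinase-like protein known to rise in type 2 responses, had 0 reads against 403, of which 399 were in replicate 2. Against a floor of 3 reads over the group that is at least 133.8-fold higher. These genes did not pass the count filter of the test across genes, and the excess lies in 1 library. Among the gasdermin C genes, Gsdmc shared this limit, with 91 of its 92 reads in replicate 2. Gsdmc2, Gsdmc3 and Gsdmc4 did not, and Gsdmc2 was at 546 and 742 CPM in replicates 1 and 3 as well. A link between the gasdermin C and type 2 cytokine values was not tested. The rest of the type 2 list did not rise as a whole. Of its 9 tested genes edgeR called 0, 4 had a positive and 5 a negative log2 fold change, and the median was -0.33. Without overlap, 2 were lower and 0 higher. The list summed to 429, 479 and 468 CPM in WT => WT and 552, 294 and 284 CPM in WT => St2-/-.

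**Figure D3:**
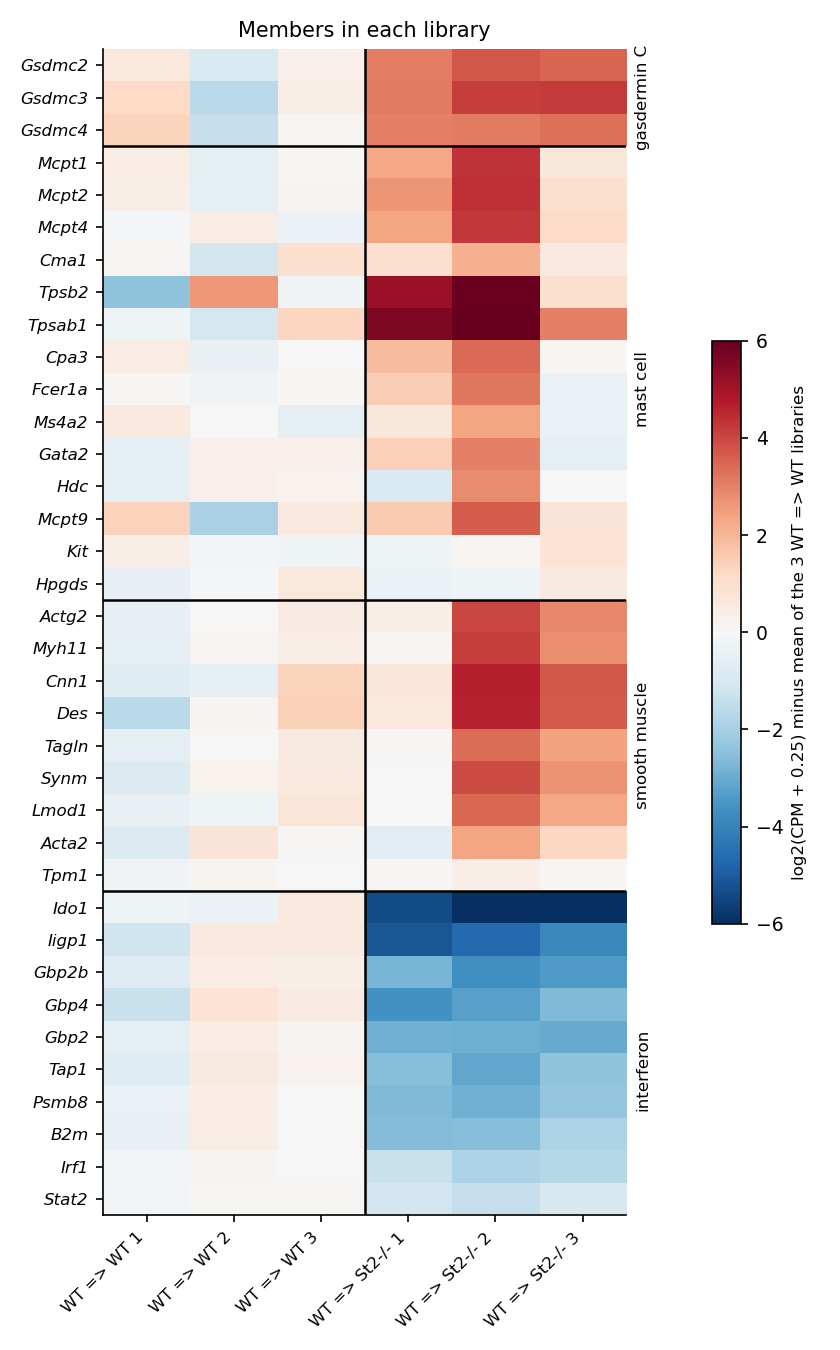
Rows are genes grouped as gasdermin C, mast cell, smooth muscle and interferon, columns are the 6 libraries, and colour gives log2(CPM + 0.25) minus the mean of the 3 WT => WT libraries, with the scale ending at 6 in either direction. Gasdermin C rows are red and interferon rows blue in all 3 WT => St2-/- columns, most mast cell rows are strongest in replicates 2 and 1, and most smooth muscle rows are red in replicates 2 and 3 alone.

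Smooth muscle genes were high in WT => St2-/- replicates 2 and 3 and not in replicate 1. All 20 markers were tested, edgeR called 0, DESeq2 8 and limma-voom 0, 13 had an unadjusted edgeR p under 0.05 in the higher direction and 1, Hspb6, named after its values were seen, was higher without overlap. The sums were 911, 1532 and 1434 CPM in WT => WT and 1196, 5778 and 2982 CPM in WT => St2-/-. Myh11, the smooth muscle myosin heavy chain, was at 24.1, 37.7 and 46.8 CPM against 36.2, 628 and 240.4 CPM (log2 fold change 3.06, SE 0.95, edgeR adjusted p = 0.181). Actg2, the enteric smooth muscle actin, was at 19.8, 27.0 and 39.5 CPM against 37.0, 443 and 206 CPM. Cnn1, a calponin of contractile fibres, was at 6.10, 6.76 and 26.9 CPM against 17.1, 268 and 141 CPM. In each of the 3 genes replicate 1 of the St2-/- hosts lay inside the range of the controls, and replicate 2 was the highest library. The median of 2.32 became -0.12 with both muscle-rich libraries left out, with 13 of 20 genes negative.

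Genes of enteric neurons and glia, which lie within and between the muscle layers, were high in the same libraries. Their sum was 31, 28.3 and 42.3 CPM in WT => WT and 51.8, 318 and 91.6 CPM in WT => St2-/-, with 0 of 16 called by edgeR, 7 by DESeq2 and 0 by limma-voom, 11 at an unadjusted p under 0.05 and 5 higher without overlap. Among those 5 was Stmn2, a microtubule regulator of neurons, at 0.859, 1.55 and 3.26 CPM against 3.47, 18.6 and 8.44 CPM. The list median fell from 2.94 to 0.18 with both muscle-rich libraries left out. Of the 12 skeletal muscle genes 5 were tested and edgeR called 0, and the list summed to 22.4 to 36.8 CPM in the 6 libraries. Ckm was the one gene of that list without overlap, at 0 to 0.172 CPM against 0.423 to 3.04 CPM. Its controls lay below the floor of 3 counts.

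Among white blood cells, Fcgr4, an activating receptor for IgG on macrophages and monocytes, was called. It lies on chromosome 1 from 171018920 to 171029761 and was at 16.1, 33.7 and 22.7 CPM in WT => WT and 3.64, 3.83 and 5.01 CPM in WT => St2-/- (log2 fold change -2.53, SE 0.32, edgeR adjusted p = 0.0238). Its relative Fcgr3 was at 18.1, 40.5 and 28.8 CPM against 6.43, 8.61 and 14.0 CPM and was not called. Of the 17 macrophage and monocyte markers, 1 was called lower and 8 were lower without overlap, among them the complement gene C1qa at 98.9 to 285 CPM against 35.4 to 85.3 CPM. Ccrl2, a receptor that binds the chemoattractant chemerin, was called at 5.75, 8.70 and 7.72 CPM against 1.52, 1.39 and 1.58 CPM (-2.29, SE 0.32, edgeR adjusted p = 0.0238). Lgmn, a lysosomal protease of antigen processing, was called at 185, 302 and 209.6 CPM against 115, 102 and 108 CPM (-1.10, SE 0.17, edgeR adjusted p = 0.0413).

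Some cytotoxic lymphocyte and neutrophil genes were lower without overlap and without an edgeR call. Of 7 genes of natural killer and cytotoxic cells tested, edgeR called 0, DESeq2 2 and limma-voom 0, 4 had an unadjusted edgeR p under 0.05 in the lower direction, 3 were lower without overlap, and the median was -1.56. Cd8a, the co-receptor of cytotoxic T cells, was at 7.21, 14.7 and 7.32 CPM against 0.339, 1.91 and 1.76 CPM (log2 fold change -2.86, SE 0.87, edgeR adjusted p = 0.177). Klrk1, the activating receptor NKG2D, was at 2.40, 3.86 and 1.99 CPM against 0.169, 0.522 and 0.791 CPM. S100a8, the calgranulin of neutrophils, was at 178, 66.7 and 183 CPM against 47.6, 1.22 and 7.47 CPM. Of 7 neutrophil genes tested, edgeR called 0, DESeq2 2 and limma-voom 1, 5 were lower without overlap (Csf3r, S100a8, Cxcr2, S100a9 and, named after its values were seen, Ltf), and the median was -2.31. Among 12 T cell genes edgeR called 0, DESeq2 2 and limma-voom 0, and the median was -0.78. Among 6 regulatory T cell genes 0 were called by all 3 tools and the median was -0.18. The neutrophil, T cell and regulatory T cell lists had 5, 2 and 0 genes at an unadjusted edgeR p under 0.05, all lower.

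**Figure D4:**
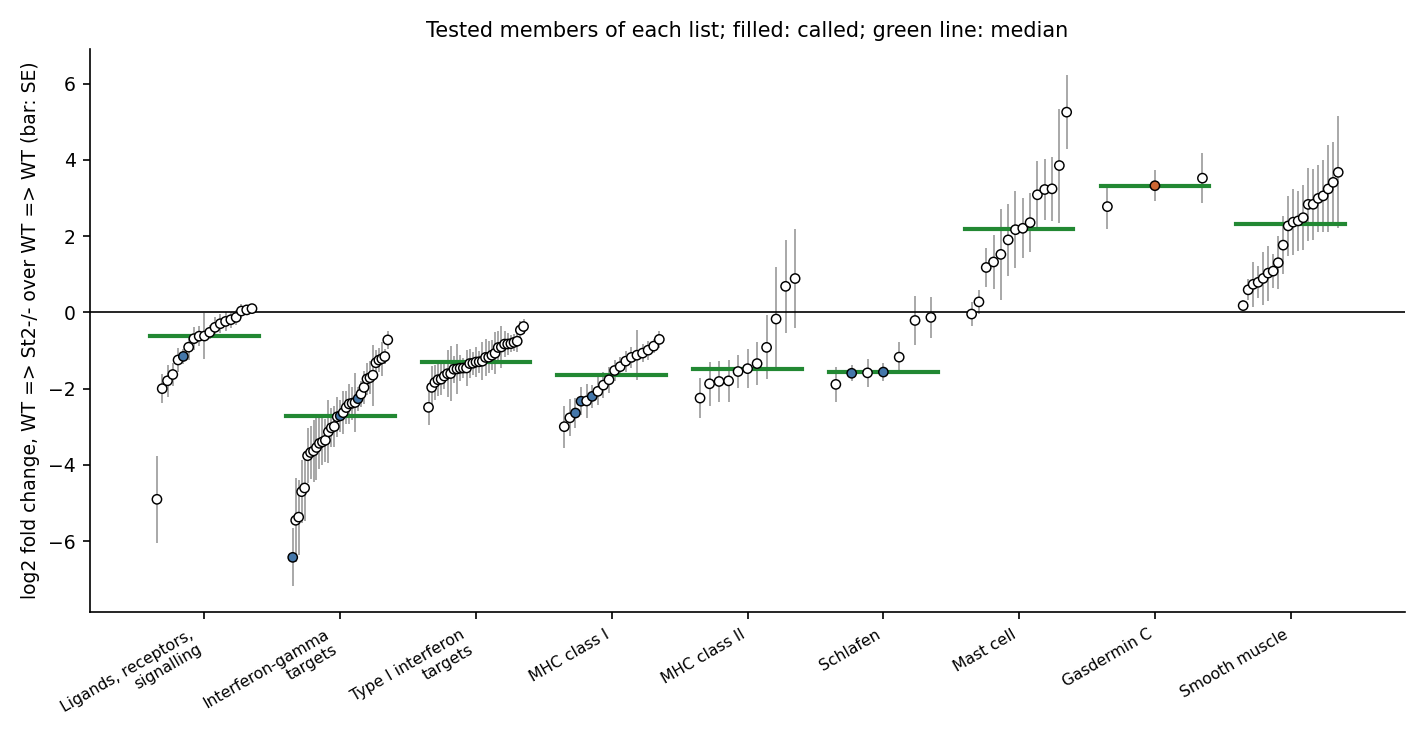
Each circle is 1 tested gene, placed by list along the x axis, with its edgeR log2 fold change of WT => St2-/- over WT => WT on the y axis, a bar of 1 SE in each direction and a green line at the list median. Filled circles are called genes, and all interferon-gamma targets lie below 0, all gasdermin C and smooth muscle genes above it, and 13 of the 14 mast cell genes above it.

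Colon epithelium markers overlapped between the groups, with the lowest sum in WT => St2-/- replicate 2. Of the 10 colon epithelium markers, 0 were called by edgeR, DESeq2 or limma-voom and 0 had an unadjusted edgeR p under 0.05, and the median log2 fold change was -0.21. The markers, among them Epcam and the keratins of simple epithelium, summed to 13626, 11908 and 10935 CPM against 13504, 6008 and 10677 CPM. Epithelial RNA was therefore present in all 6 libraries, and the share of tumour against normal epithelium was not measured. Goblet cell genes summed to 15564, 1450 and 5038 CPM against 5063, 1527 and 6286.5 CPM. Absorptive colonocyte genes summed to 2835, 519 and 1276 CPM against 1196, 567 and 908 CPM. Of the 8 genes tested in each of these lists, edgeR called 0. The part of this spread in the values of single epithelial genes was not tested. Reg3b, a lectin that epithelium secretes against bacteria, was at 1523, 632 and 2008 CPM against 304, 13.6 and 92.7 CPM (-3.34, SE 1.05, edgeR adjusted p = 0.184). Lbp, which binds bacterial lipopolysaccharide, was called at 87.9, 61.6 and 75.0 CPM against 22.9, 12 and 25.4 CPM (-1.90, SE 0.30, edgeR adjusted p = 0.0458). Lgr5, the marker of intestinal stem cells, was at 3.26, 6.47 and 15.7 CPM against 16.6, 31.1 and 26.8 CPM, and Sox9, a factor of crypt base cells, at 136 to 169 CPM against 202 to 239.7 CPM. Neither was called, and 0 of the 10 Wnt target and stem cell genes were called by edgeR, DESeq2 or limma-voom, with 2 higher and 1 lower at an unadjusted edgeR p under 0.05. Ly6c1, a surface protein of endothelium and some lymphocytes, was called lower at 104, 119.6 and 149 CPM against 31.6, 15.0 and 29.0 CPM (-2.30, SE 0.35, edgeR adjusted p = 0.0413). The other 9 endothelial markers all had a positive log2 fold change, and 32.8% of the windows of Ly6c1 also occur in other genes.

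Several called genes belong to none of these groups and had few or no reads in 1 of the 2 groups compared. Wipi1, on chromosome 11 from 109573331 to 109611967, was at 0.172, 0.0966 and 0.0796 CPM in WT => WT and 27.0, 30.2 and 21.5 CPM in WT => St2-/-. It had 4 reads against 911, a ratio of 227 with a 95% counting interval of 88.3 to 834 (log2 fold change 7.70, SE 0.52, edgeR adjusted p = 0.000222). The controls were below the floor of 3 reads per library. In the other groups of the study it was at 25.2 to 27.4 CPM in St2-/- => St2-/- and at 0.0862 to 0.686 CPM in St2-/- => WT. Tcfl5, a transcription factor known from the testis, showed the opposite pattern at 16.1, 25.2 and 8.12 CPM against 0, 0.261 and 0.439 CPM, with 550 reads against 8. That is a ratio of 69.0 with a 95% counting interval of 34.8 to 161 (edgeR adjusted p = 0.0238). Its exons overlap Col9a3 on the opposite strand. Olfr76, an olfactory receptor, had 0 reads against 59, at least 19.6-fold higher (edgeR adjusted p = 0.0458). It reached only 1.10, 2.52 and 1.49 CPM in WT => St2-/- and was called in 8 of 22 alternatives. Its host effect differed by 5.41 on the log2 scale (SE 1.33) from that under St2-/- marrow, against 0.22 (SE 0.76) for Tcfl5. Among the groups compared, Wipi1, Tcfl5 and Olfr76 could each pass the count filter only through the group where it was high, which limits their p-values as support.

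Smaller differences in further called genes outside the listed groups followed. Mfap1a, a splicing factor, was at 26.8, 26.3 and 23.9 CPM against 3.98, 9.04 and 6.06 CPM (log2 fold change -2.01, SE 0.26, edgeR adjusted p = 0.0238), with 51.1% of its windows shared, mainly with Mfap1b. Arl2bp, a partner of the small GTPase ARL2, was at 141, 170.2 and 178 CPM against 54.2, 83.3 and 54.8 CPM (-1.35, SE 0.20, edgeR adjusted p = 0.0398). Nrbp2, a pseudokinase, was at 50.6, 37.6 and 69.9 CPM against 142, 357 and 206 CPM (2.16, SE 0.33, edgeR adjusted p = 0.0413). Sfi1, a centrosome protein, was at 18.5, 37.5 and 32.3 CPM against 64.7, 110.2 and 101 CPM (1.64, SE 0.26, edgeR adjusted p = 0.0458). Exons of Nrbp2 overlap Gm48952 and those of Sfi1 overlap Gm11399 on the opposite strand. The 24 called genes lay on 11 chromosomes, and 1 of them, Fcgr4, shared chromosome 1 with Il1rl1. Chromosome 1 held 895 of the 15060 genes tested. Chromosomes 11, 15 and 2 had 5, 4 and 4 called genes among 1261, 593 and 1155 tested.

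Whether the marrow genotype altered the effect of host ST2 was tested as the difference between this host contrast and the one under St2-/- marrow. No gene passed (0 called, 0%, edgeR quasi-likelihood test), 1144 had an unadjusted p under 0.05, and DESeq2 called 93 and limma-voom 4. Gsdmc2 had the lowest adjusted p, 0.119, with a difference of 4.46 on the log2 scale (SE 0.56). It was at 226, 239 and 131 CPM in St2-/- => WT and at 94.5, 112 and 65.4 CPM in St2-/- => St2-/-, where the St2-/- hosts were the lower ones. For Ido1 the difference was -0.56 (SE 0.92, edgeR adjusted p = 0.902) and for Mcpt1 2.47 (SE 1.16, edgeR adjusted p = 0.661). A p that misses the threshold does not show that the host effects were alike under both marrows.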

How the data were processed

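The authors' deposited table gives raw read counts for 24062 genes in 12 libraries. Single-end reads of 50 bases were aligned, per the submitters' processing notes, with TopHat and Bowtie2, and the builds named there are GRCm38 and mm10. The sources used here give neither the aligner versions nor the counting tool, annotation or strand setting. A further 5 entries name no gene. They took 52.0% to 58.5% of the 6 libraries compared and entered neither library sizes nor tests. Reads with more than 1 best position were counted for no gene, which affects close copies. The table held 0 columns without a sample.

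R 4.3.3 and edgeR 4.0.16 were used. The filterByExpr step with a minimum count of 10 kept 15060 genes and removed 9002, of which 4368 had no count in any library. The robust quasi-likelihood model, with TMM scaling, had 1 coefficient for each of the 4 groups, which makes the spread that of 12 libraries. Tests were two-sided, and "called" means a Benjamini-Hochberg adjusted p under 0.05. SE stands for the standard error of a log2 fold change. P-values measure only the spread between these libraries. Intervals are exact 95% intervals, and they and the floors of 3 counts cover counting error only. On counts simulated from these libraries (14891 genes), the model recovered 28% of the 2-fold changes and 77% of the 4-fold changes, with 6 false among 111 calls. Each gene was simulated on its own, without shifts shared by many genes of a library, such as those of muscle content. Changes were planted only in genes above a low mean CPM. The rates may therefore not hold for the real libraries.

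The comparison, the 34 gene lists and the alternatives were chosen with earlier results of these data known. Named genes were all called genes other than predicted genes, pseudogenes and sex-linked genes, then Il1rl1 and Il33, the mast cell and gasdermin C lists, and up to 8 (interferon, MHC, schlafen and smooth muscle lists) or up to 4 (other lists) members with the smallest p. Alternatives used DESeq2 1.42.0, limma 3.58.1 with voom, other filters and scaling, a replicate block, a covariate for the weeks after AOM, the compared groups alone, and each library left out in turn. After the data had been seen, 2 were added, the removal of both muscle-rich WT => St2-/- libraries and the muscle score as a covariate. Of the gene names, 93.7% matched a RefSeq symbol and 5.62% a synonym. Coordinates are those of GENCODE M21 on GRCm38. Replicates of a group differed far beyond sampling noise. Some list members are counted in their lists and not reported here by name.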

Additional observations from a re-analysis of the deposited data

Results flagged for a closer look

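Among the listed genes that did not pass the count filter of the test across genes, 4 stood well above the control libraries in a single tumour, WT => St2-/- replicate 2. Gsdmc, a gasdermin C gene, reached 7.91 CPM there, with 91 of its 92 reads in the St2-/- hosts, against 1 read in the 3 WT => WT libraries. Chil4, the chitinase-like protein of type 2 responses, reached 34.7 CPM, against 0 reads in WT => WT. Il13, the type 2 cytokine, reached 3.39 CPM, against 1 read in WT => WT. Nos1, the nitric oxide synthase of enteric neurons, reached 3.22 CPM, with 3 reads in WT => WT and 38 in the 3 St2-/- hosts. The same library had the highest smooth muscle, enteric neuron and mast cell sums of the 6, and their part in these 4 values was not tested.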

How the results depend on the processing

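The count of 24 called genes was 26 with DESeq2 size factors, 25 without a filter and 24 with a filter of CPM 1. It was 746 with DESeq2, 301 with limma-voom, 5 with weeks after AOM as a covariate, 1 with only the 2 groups compared, 3 with both muscle-rich libraries left out and 4 with the muscle score as a covariate. Leaving out each library in turn gave 1 to 142 calls. With the replicate block it was 13, of which 9 were shared, and same-numbered libraries had correlations of 0.23, 0.31 and -0.03, so the numbers were not taken as pairs. The difference between host effects had 0 calls, also with the replicate block, but 93 with DESeq2, 4 with limma-voom and 1 with both muscle-rich libraries left out. The called genes named kept their direction in every alternative. The log2 fold change of Kit became -0.27 with both muscle-rich libraries left out and lay between -0.078 and 0.51 over single libraries left out, and that of Il33 lay between -1.09 and 0.059. The cause of these moves was not tested.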
